A study of Taeniopygia guttata with 134 samples.

Results

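Gene expression in the nucleus taeniae (TN) was set against that in the hypothalamus (HY) of the same birds, all male zebra finches (Taeniopygia guttata), songbirds with long-lasting pair bonds. The comparison used libraries of males that had received the control injection, coded S in the labels, and paired them by the male number in the library name. It held 44 of the 134 libraries of the series: 22 from TN and 22 from HY, of 22 males that had both. A further control HY library was left out because its male had no TN library here. The males were alone (ISO, 6 males), stayed throughout with a female they knew (KFC, 5), were put back with a known female (KF, 6) or met a female new to them (NF, 5). The same region comparison was made in 20 males injected with lipopolysaccharide (LPS), an endotoxin of bacteria that sets off an immune response, which share no library with the control males. These were 6 males in ISO, 6 in KF, 5 in KFC and 3 in NF. Each library held polyadenylated RNA of a single dissected region of an individual male, as far as the labels say. The labels do not state the birds' age, the dose or how long after the injection tissue was taken.

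The nucleus taeniae lies in the ventral arcopallial region of the avian telencephalon and is regarded as corresponding to part of the mammalian medial amygdala. It takes part in social and sexual behaviour and is connected with the hypothalamus. The hypothalamus belongs to the diencephalon; its neurons make many of the peptides that govern pituitary hormones, feeding, water balance and reproduction. A telencephalic nucleus linked with both is the bed nucleus of the stria terminalis, labelled NST.

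The deposited table names genes only by Ensembl identifiers, none of the 18618 could be paired with a gene name, and single genes are therefore given by identifier and without a role. For the same reason the region labels could not be checked against markers such as hypothalamic neuropeptides or pallial transcription factors. They were checked only against the libraries themselves, by medians formed from the same labels. Such a check can find a single swapped library, but not labels exchanged throughout or a tissue wrongly named. Each of the 44 libraries correlated more closely with the median profile of its own region than with that of the other, with the male itself left out of both medians. The correlation of TN libraries with TN ran from 0.964 to 0.978 and with HY from 0.924 to 0.955. That of HY libraries with HY ran from 0.898 to 0.980 and with TN from 0.875 to 0.953. These correlations are across 13448 genes, which are not independent replicates.

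The total count per library ran from 9659886 to 14096470 in TN and from 7339294 to 13159755 in HY. TN libraries were deeper in 21 of 22 males (2-sided paired permutation p = 1e-05, the smallest that 100000 permutations can give), so depth moved with region. Despite the greater depth, fewer genes had at least 1 count in TN, on average 15607 ± 138 against 15722 ± 221 in HY (SD, n = 22 each; paired permutation p = 0.0284). With every library thinned to 7339294 counts, TN libraries held 15336 ± 109 genes and HY libraries 15617 ± 191 (SD, n = 22 each), and HY held more in 21 of 22 males (paired permutation p = 1e-05). The HY library of male 44, a KF male, stood apart. In it 209 genes lay more than 2-fold above every other HY library and 1266 more than 2-fold below, against at most 16 and 77 genes in any other HY library. It had the lowest correlation with its region, 0.898. The counts of called genes over all settings and in each setting are given with and without this male. Counts by size of the difference or by level are given only with it.

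A set of 13 genes took a summed share of the counts that was either high or low, with no library in between. Between TN and HY the 2 levels largely followed the region, by which the genes had been chosen. The set holds the genes at least 2-fold higher in TN that in HY of male 5 lay more than 2-fold above every other HY library. This rule was set after the values were seen, so the set carries no test. It asks for genes higher in TN, so a high level in TN and a low one in most HY libraries follows from the choice. Together the 13 genes took between 2.89% and 6.85% of all counts in the 22 TN libraries (median 4.35%). In HY they took between 0.277% and 0.659% in 21 males, and 6.44% in male 5, an ISO male whose TN library held 5.04%. HY of male 5 was thus at the level of TN for these genes, whereas it lay with the other HY libraries overall.

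The same break was seen in all 134 libraries of the series, where no share fell between 0.659% and 2.37%. All 43 TN libraries, control and LPS, were above the gap, as were 23 of 46 NST libraries and 3 of 45 HY libraries. In NST, without a test, all 10 KFC libraries were above the gap, at 4.13% or more, and none of the 6 control KF libraries were, at 0.468% or less. In control ISO males 4 of 6 NST libraries lay above it. The level in NST went with the male number too: it was high in 9 of 9 control males numbered 50 or higher and in 1 of 14 with lower numbers. In LPS males it was high in 7 of 8 numbered 50 or higher and in 6 of 15 with lower numbers. With KFC males left out, it was high in 4 of 4 control males and 2 of 3 LPS males numbered 50 or higher. All KFC males are numbered 62 to 71, so that KFC and a high male number cannot be told apart. What the numbers stand for is not stated in the labels, and the limit of 50 was chosen after the values were seen. Since no TN library was below the gap, region and level of this set cannot be told apart in TN, and the differences of its genes between TN and HY are given with that limit.

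**Figure D1:**
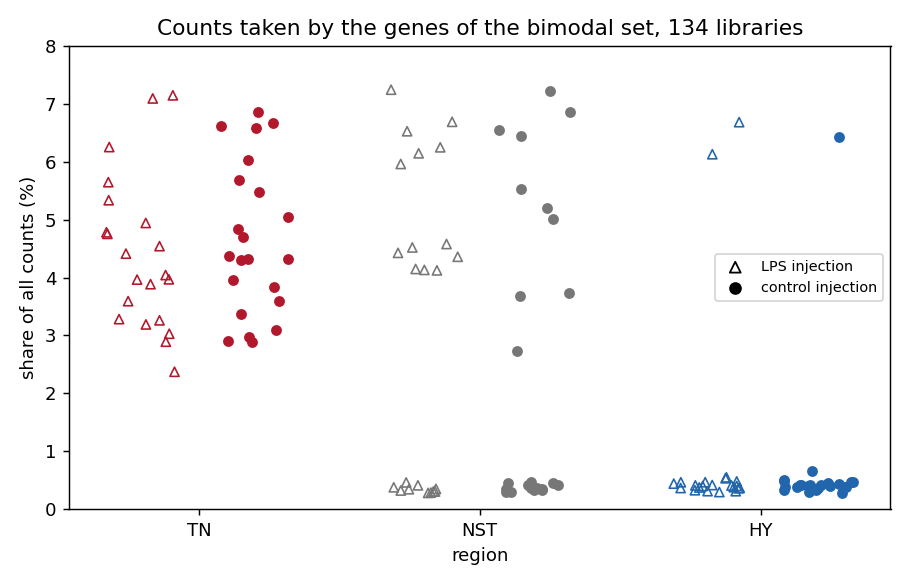
Share of all counts taken by the 13 genes of the bimodal set (vertical axis, %) in each of the 134 libraries, by region; open triangles are LPS and filled circles control libraries. All 43 TN libraries lie above 2.37%, NST libraries lie on both sides of the gap, and 3 of 45 HY libraries lie above it.

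TN and HY differed in most of the genes tested. Among 13448 genes, 7761 differed within males, or 57.7%, with 3797 higher in TN (28.2%) and 3964 higher in HY (29.5%; edgeR quasi-likelihood test with male as a block, Benjamini-Hochberg adjusted p under 0.05). In bulk tissue, fewer cells of a type and less RNA per cell cannot be told apart. Most differences were small. The median difference of TN minus HY was 0.36 on the log2 scale for genes higher in TN and -0.48 for genes higher in HY, with a median SE of 0.082 over all tested genes. Among genes that did not pass the test the median absolute difference was 0.085. The balance of the directions depended on scaling. With libraries scaled by their total counts alone, 2181 of the 13448 genes were higher in TN and 6061 higher in HY. The median difference over all genes was then -0.14 on the log2 scale, against -0.01 with the scaling used. Without male 44 the counts with the scaling used were 4206 higher in TN and 4212 higher in HY, of 13457 genes.

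Large differences were fewer, and more of them were higher in HY. At least 2-fold differences were found for 420 genes higher in TN (3.12%) and 754 higher in HY (5.61%). At least 4-fold differences were found for 88 genes higher in TN (0.654%) and 116 higher in HY (0.863%). At least 8-fold differences were found for 36 genes higher in TN (0.268%) and 41 higher in HY (0.305%). At least 16-fold differences were found for 14 genes higher in TN (0.104%) and 31 higher in HY (0.231%). The bimodal set made up 11 of the 88 genes at least 4-fold higher in TN and 3 of the 14 at least 16-fold higher. Its own differences ran from 1.54 to 5.06 on the log2 scale. With the set left out of the table, 3757 genes were higher in TN and 3976 higher in HY.

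The direction of the difference went with the level of the gene. Among 4003 tested genes with a mean of 10 CPM (counts scaled to a common library size) or less over the 44 libraries, 614 were higher in TN and 1480 higher in HY, so that 29.3% of the calls were higher in TN. Among 7404 genes between 10 and 100 CPM, 2274 were higher in TN and 2073 higher in HY, or 52.3%. Among 2041 genes above 100 CPM, 909 were higher in TN and 411 higher in HY, or 68.9%. In LPS males the same shares were 32.5%, 52% and 66.6%. With total-count scaling the shares in control males were 17.1%, 27% and 41%, so that most calls were higher in HY at each level, and the share higher in TN still grew with the level.

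Few genes were nearly silent in a single region of the 2, and most of these were low in TN. Of 13448 tested genes, 21 were called with a mean under 0.5 CPM in TN and at least 5 CPM in HY. Their means in HY had a median of 13.5 CPM and a highest value of 134 CPM. Of these, 20 were higher in HY in each of the 22 males. In LPS males 20 of the 21 were tested, and all 20 were called higher in HY, as were 29.0% of all genes tested there. Among all genes called higher in HY in control males, 0 lacked counts in all 22 TN libraries, and 6 lacked them in at least 11. Among those called higher in TN, 0 lacked counts in all 22 HY libraries, and 1 lacked them in at least 11. The opposite pattern, under 0.5 CPM in HY with at least 5 CPM in TN, was found for 2 genes. These had the largest fitted differences among genes higher in TN, 7.02 and 6.22 on the log2 scale, yet differed greatly between males. The first had 0 to 99.5 CPM in TN (median 10.4) and 0 to 2.37 CPM in HY (median 0), and the second 0 to 157 CPM in TN (median 13.2) and 0 to 4.04 CPM in HY (median 0.204). In TN the first had no count in 3 males and the second in 2, so neither was higher in TN in each male, and both passed the test in LPS males too.

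Genes at least 2-fold higher in TN took 8.40% ± 1.57 of all counts in TN and 2.18% ± 1.27 in HY (SD, n = 22 each). Without the bimodal set the remaining 407 genes took 3.75% ± 0.53 in TN and 1.49% ± 0.19 in HY (SD, n = 22 each). Genes at least 2-fold higher in HY took 1.12% ± 0.25 of counts in TN and 3.62% ± 0.48 in HY (SD, n = 22 each). These shares describe genes that were chosen by this comparison and are no separate test of it.

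**Figure D2:**
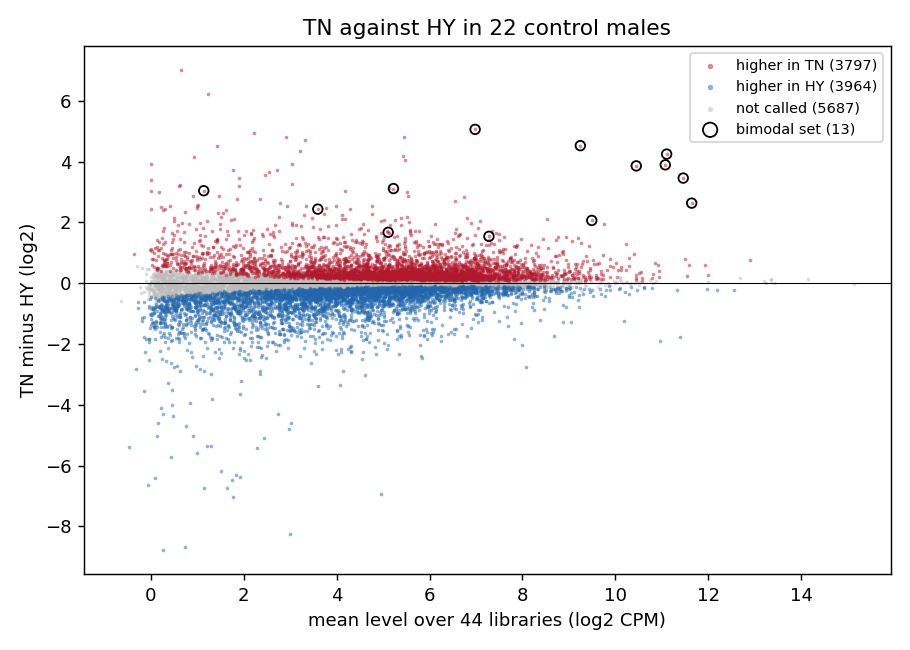
Difference of TN minus HY in 22 control males (log2, vertical axis) against the mean level of each of 13448 tested genes (log2 CPM, horizontal axis); circles mark the 13 genes of the bimodal set. Genes higher in HY prevail at low levels and genes higher in TN at high levels with the scaling used, and 3797 and 3964 genes were called in the 2 directions.

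Some genes separated the regions completely. For 190 genes the lowest of the 22 TN libraries lay above the highest HY library (1.41% of tested genes), and for 104 genes the highest TN library lay below the lowest HY library (0.773%). Without male 44 these numbers were 225 (1.67%) and 178 (1.32%). A difference of the same sign in each male was more common, with 699 genes higher in TN in 22 of 22 males (5.20%) and 643 higher in HY (4.78%). Without male 44, 840 genes were higher in TN in each of 21 males (6.25%) and 932 higher in HY (6.93%).

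The levels varied between males as well as between regions. The variance of log2 CPM over the 44 libraries was divided per gene into sums of squares between regions, on 1 degree of freedom, and between males and left over, on 21 each. Each male had a single setting, so differences between settings count here as differences between males. The median shares were 10.9% between regions, 53% between males and 26.7% left over; the first cannot be ranked against the others, since the degrees of freedom differ. In 37 genes the region accounted for over 90% of the variance, with 17 higher in TN and 20 in HY and a median absolute difference of 4.36 on the log2 scale. In 390 genes over 90% lay between males. Over the 22 males the level of a gene in TN and its level in HY had a median correlation across genes of 0.29, or 0.35 without male 44. Of 13448 tested genes, 3582 had a correlation over 0.5 with all 22 males.

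The mean spread between males was nearly equal in the regions with male 44 and larger in TN without it. The spread was measured per library as 1 minus its correlation with the median profile of the other males. It averaged 0.0274 ± 0.0043 in TN and 0.0275 ± 0.0172 in HY (SD, n = 22 each; 2-sided paired permutation p = 0.998). With all 22 males the median spread was 0.0262 in TN and 0.0232 in HY, and the spread was higher in TN in 14 males. Without male 44 it averaged 0.0272 in TN and 0.0239 in HY and was higher in TN in 14 of 21 males (paired permutation p = 0.0228). The difference of means thus changed sign with 1 male. The biological coefficient of variation, the typical spread between males beyond counting error, was 0.299 in TN and 0.248 in HY without male 44, and 0.300 and 0.280 with it.

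For 4 genes the values are given in full: per direction, the largest fold and the largest difference in CPM among genes that differed the same way in each of the 22 males, the first with a mean of at least 10 CPM. ENSTGUG00000018706 had 248 to 1690 CPM in TN (median 749) and 3.11 to 413 CPM in HY (median 22.2). The regions overlapped only through HY of male 5, at 413 CPM, since the next HY library stood at 64.6 CPM. This gene is a member of the bimodal set. Its difference of TN minus HY was 5.06 on the log2 scale (SE 0.35, edgeR adjusted p = 7.61e-12; higher in TN in 22 of 22 males). In single males the difference ran from 0.17, in male 5, to 8.97, in male 44, whose HY library stood apart.

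ENSTGUG00000006133 was abundant in both regions and differed evenly, on average by less than 2-fold but by more than the median gene called higher in TN. It had 3069 to 4549 CPM in TN (median 3854) and 1802 to 3007 CPM in HY (median 2172), and every TN library lay above every HY library. Its difference was 0.80 on the log2 scale (SE 0.05, edgeR adjusted p = 3.77e-13), with 0.44 to 1.15 in single males. It averaged 3813 ± 362 CPM in TN and 2200 ± 311 CPM in HY (SD, n = 22 each).

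ENSTGUG00000010980 was nearly absent from TN and high in HY, with a median of 9.45 CPM in NST. It had 0 to 1.39 CPM in TN (median 0.259), with no count in 4 of 22 libraries and at most 15 counts in any, and 56.5 to 223 CPM in HY (median 132). The regions did not overlap. Its fitted difference was -8.24 on the log2 scale (SE 0.21, edgeR adjusted p = 2.15e-20). That value depends on the small count added within the fit, because the counts in TN are so low. The within-male differences of log2 CPM, with the prior count of 2 used for levels, gave -7.93 with limma. The region accounted for 96.3% of its variance.

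ENSTGUG00000006519 had the largest difference in CPM among called genes that were higher in HY in each of the 22 males. It had 773 to 2616 CPM in TN (median 1533) and 2355 to 8204 CPM in HY (median 5086), so that the ranges overlapped between males but not within any male. Its difference was -1.77 on the log2 scale (SE 0.12, edgeR adjusted p = 1.64e-12), and in single males it ran from -2.77 to -0.82. Over 34 fits, the one reported and those with other settings or without a male, the differences of this gene, ENSTGUG00000006133 and ENSTGUG00000010980 ran from -1.91 to -1.72, from 0.66 to 0.82 and from -8.66 to -7.93.

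**Figure D3:**
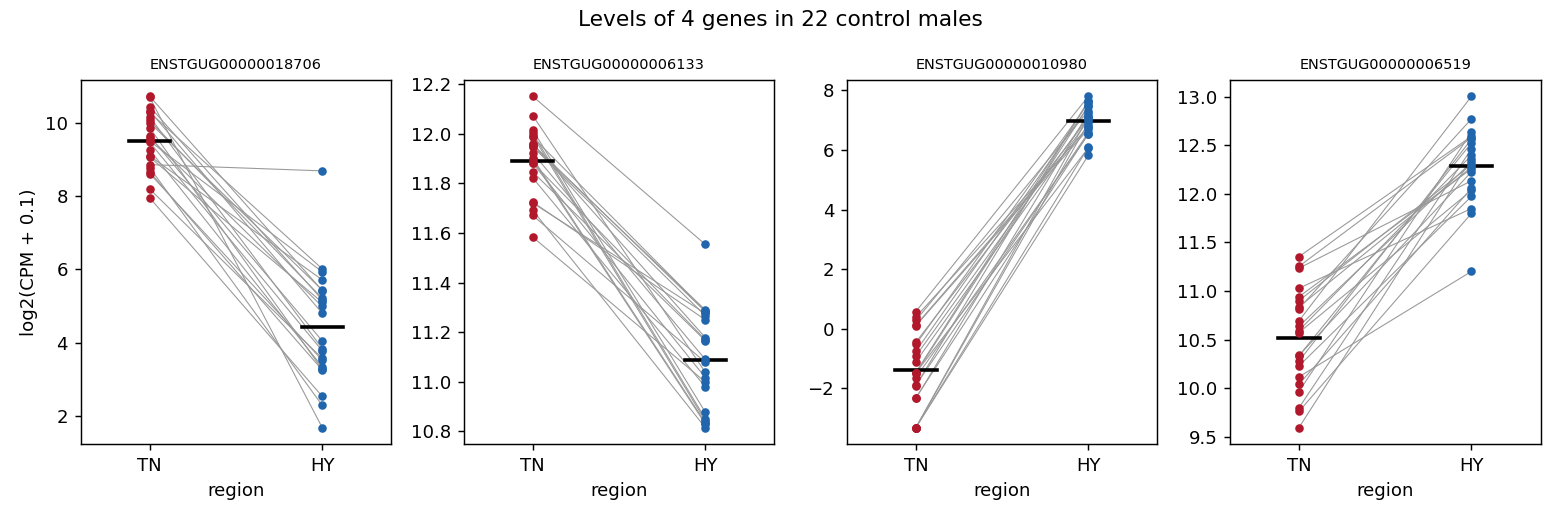
Level of 4 genes in TN (left) and HY (right) of 22 control males on the scale of log2(CPM + 0.1); lines join the libraries of a male and black bars are means of the log2 values. In ENSTGUG00000018706 the line of male 5 stays nearly level, at 413 CPM in HY, whereas the HY libraries of the remaining males lie at 64.6 CPM or lower.

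The difference between the regions was found in each social setting. In ISO 22.7% of tested genes were called, with 1469 higher in TN (10.9%) and 1584 higher in HY (11.8%). In KFC 25.8% were called, with 1668 higher in TN (12.4%) and 1803 higher in HY (13.4%). In KF 31.3% were called, with 2124 higher in TN (15.8%) and 2082 higher in HY (15.5%). In NF 25.9% were called, with 1712 higher in TN (12.7%) and 1773 higher in HY (13.2%; edgeR with male as a block, adjusted p under 0.05). With 5 or 6 males each, the median SE was 0.158 in ISO, 0.173 in KFC, 0.159 in KF and 0.174 in NF, against 0.082 over all males. The settings were fitted together with a common estimate of the spread, so a male of a setting enters the SE of the others too. On the log2 scale, the absolute difference had a median over tested genes of 0.225 in ISO, 0.267 in KFC, 0.272 in KF and 0.270 in NF. In all 4 settings 908 genes were called higher in TN (6.75%) and 925 higher in HY (6.88%). A single gene was called higher in TN in a setting and higher in HY in another. Without male 44, which was a KF male, 13457 genes were tested. Of these, 3845 were called in ISO, 4403 in KFC, 4182 in KF and 4470 in NF, so that KF no longer had the highest count. The count in KFC was 2111 without male 66 and 2298 without male 70, in place of 3471.

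Whether the region difference itself depended on the setting was tested directly. The interaction of region and setting gave 0 genes of 13448 (0%) with edgeR, and 0 with DESeq2. An unadjusted p under 0.05 was found for 291 genes (2.16%) with edgeR and 363 with DESeq2. Without male 50 a single gene passed. In simulated counts with the real males' levels, in which 100 genes changed by 1 and 99 by 2 on the log2 scale in TN of KF males only, the test recovered 56% of the smaller and 90% of the larger changes. In such counts a change of that smaller size in a single setting was thus often missed with this number of males. Apart from these changes each simulated male had the same level in TN and HY, so the rates need not hold in the real counts.

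The named genes kept their direction in each setting. They had been chosen for a difference of the same sign in every male, so this direction follows from the choice. They had also been chosen as called over these same males, so passing the test in a setting is no independent check. ENSTGUG00000010980 had a difference of -8.28 in ISO (SE 0.41), -8.47 in KFC (SE 0.48), -8.43 in KF (SE 0.43) and -7.77 in NF (SE 0.46) on the log2 scale. ENSTGUG00000006133 had differences between 0.73 in KFC (SE 0.11) and 0.88 in ISO (SE 0.10). ENSTGUG00000006519 had differences between -1.98 in KF (SE 0.22) and -1.46 in ISO (SE 0.22). ENSTGUG00000018706 had differences between 4.34 in ISO (SE 0.70), the setting of male 5, and 5.39 in NF (SE 0.73). Each of the differences of these genes passed the test, the highest adjusted p being 0.000112, and the interaction p of these genes lay between 0.377 and 0.832 before adjustment.

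The region difference was then measured in males that the control comparison had not used. In LPS males 57.9% of 13477 genes were called, with 3891 higher in TN (28.9%) and 3907 higher in HY (29.0%; edgeR with male as a block). Of 13306 genes tested in both sets of males, 3060 were higher in TN in LPS males and in control males, which is 79.0% of the calls higher in TN in LPS males and 81.0% of those in control males. Likewise 3146 were higher in HY in both, or 81.5% of the LPS calls and 80.4% of the control calls. Opposite calls were made for 6 genes. Of genes called and at least 2-fold higher in TN in control males, 408 of 412 were also called in LPS males, as were 715 of 729 at least 2-fold higher in HY. The difference in LPS males had a correlation across genes of 0.94 with that in control males, and genes are not independent replicates in this value. For genes called higher in TN in control males, the log2 difference had a median of 0.27 in LPS males and 0.35 in control males. For genes called higher in HY it had a median of -0.39 in LPS males and -0.48 in control males. These genes were chosen by their values in control males, so the medians are a description only. Without LPS males 32 and 33, whose HY libraries stood apart in an earlier analysis of these data, 56.3% of genes were called, with 3678 higher in TN (27.4%) and 3892 higher in HY (29.0%).

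Seen male by male, the direction found in LPS males held in most control males. Over the 7733 genes called in LPS males and tested in control males, the share with the same sign in a control male had a median of 83.6% and a highest value of 91.1%, in male 50. It was 79.8% or more in 21 males and 61.3% in male 44. Over the 894 of these that were at least 2-fold in LPS males the share had a median of 95.4%, with 83.0% in male 44 and 88.6% or more in the rest.

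**Figure D4:**
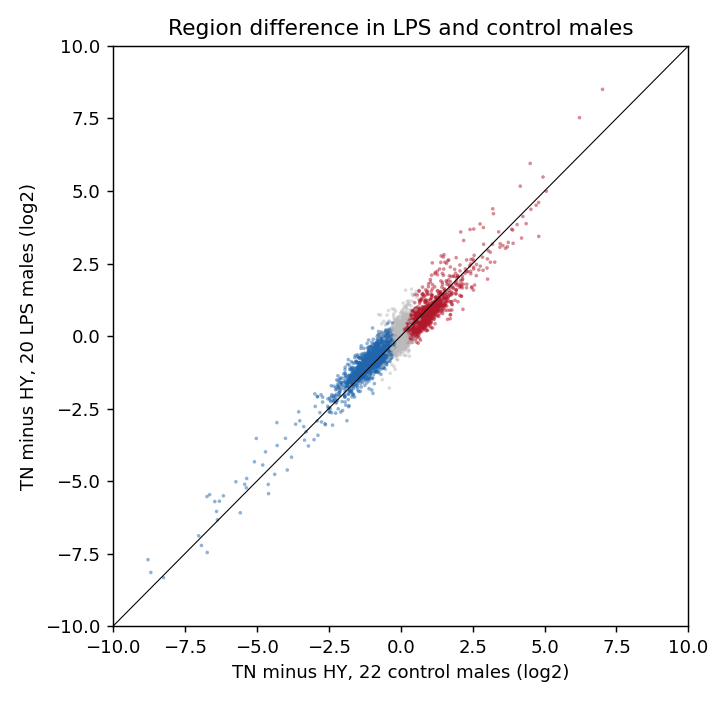
Difference of TN minus HY on the log2 scale in 20 LPS males (vertical axis) against that in 22 control males (horizontal axis), 1 point per gene tested in both; red points were called higher in TN and blue points higher in HY in control males, and the line marks equal values. The points lie along the line, with a correlation across genes of 0.94.

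The named genes had like differences after LPS. ENSTGUG00000018706 had 133 to 1584 CPM in TN of LPS males (median 724) and 5.08 to 518 CPM in HY (median 14.8), a difference of 4.99 on the log2 scale (SE 0.46, edgeR adjusted p = 1.20e-08). ENSTGUG00000010980 had 0 to 0.999 CPM in TN (median 0.279) and 53.9 to 206 CPM in HY (median 104), a difference of -8.33 (SE 0.18, adjusted p = 4.57e-20). ENSTGUG00000006133 differed by 0.81 (SE 0.05, adjusted p = 4.63e-13) and ENSTGUG00000006519 by -1.49 (SE 0.13, adjusted p = 2.18e-09). The difference of the region difference between LPS and control males was tested in a common fit. It passed for 8 of 13529 genes (0.0591%), while 1715 genes (12.7%) had an unadjusted p under 0.05. Relative to HY, TN was higher after LPS than after control injection for 1 gene (0.00739%) and lower for 7 (0.0517%). The median absolute size of the 8 was 0.60 on the log2 scale. The difference was larger in size in LPS males for 1 of the 8 and in control males for 7, and 4 had opposite fitted signs.

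The bed nucleus stood between TN and HY for most genes that differed. NST libraries of the same 22 males were scaled together with those of TN and HY, and levels are given without a test because the comparisons would share libraries. For the 420 genes at least 2-fold higher in TN the median level over genes was 4.83 in TN, 4.10 in NST and 3.17 in HY (log2 CPM), and 369 genes (87.9%) had a mean in NST between those of TN and HY. For the 754 genes at least 2-fold higher in HY the median level was 1.72 in TN, 2.61 in NST and 3.29 in HY, and 663 genes (87.9%) lay between. Of all genes called higher in TN 76.9% lay between, and of all called higher in HY 77.4%. Over all 13448 tested genes, 56.4% lay between. Male by male, the median level of the 420 genes ran from 4.63 to 5.12 in TN, from 3.54 to 4.84 in NST and from 2.96 to 3.58 in HY. That of the 754 genes ran from 1.34 to 2.22 in TN, from 2.26 to 2.94 in NST and from 2.91 to 3.82 in HY. For neither the 420 nor the 754 genes did TN and HY overlap, and within each of the 22 males NST lay between them for both. These genes were chosen by their difference between TN and HY in these libraries, so that separation follows from the choice. A gap chosen to be wide also leaves more room for NST to lie between, so these values are a description only. The NST library of male 4 had the highest NST level of the 420 genes, 4.84. Without this male 360 of the 420 and 658 of the 754 genes lay between.

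**Figure D5:**
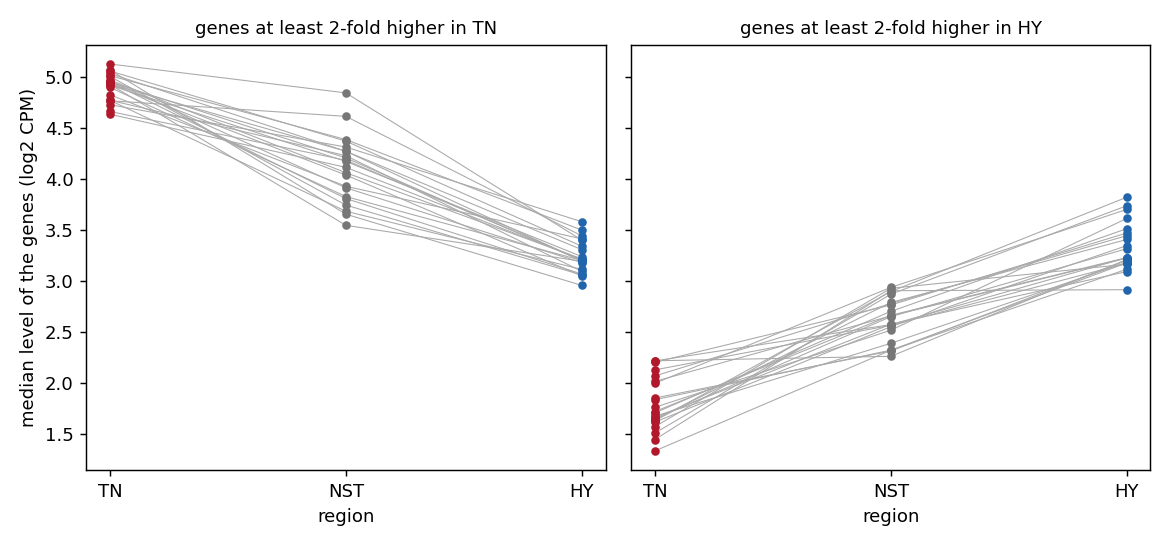
Median level (log2 CPM) of the 420 genes at least 2-fold higher in TN (left panel) and the 754 genes at least 2-fold higher in HY (right panel) in TN, NST and HY of 22 control males; each line is a male. NST levels, from 3.54 to 4.84 in the left panel, lie between those of TN and HY in each of the 22 males. The genes were chosen by their difference between TN and HY in these males.

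In NST 3 of the 4 named genes were intermediate in at least 18 of 22 males. ENSTGUG00000010980 had a median of 0.259 CPM in TN, 9.45 CPM in NST and 132 CPM in HY, and its NST level lay between the others in 21 of 22 males. ENSTGUG00000006133 had medians of 3853, 2663 and 2171 CPM in TN, NST and HY, and ENSTGUG00000006519 had medians of 1533, 2945 and 5084 CPM in the same order. Their NST levels lay between those of TN and HY in 20 and 18 males. ENSTGUG00000018706, of the bimodal set, had a median of 749 CPM in TN, 57.1 CPM in NST and 22.2 CPM in HY, but its NST level lay between the others in only 12 of 22 males, above TN in 3 and below HY in 7. In NST it had 749 to 1246 CPM in the 5 KFC males. In the remaining settings it had 212 to 385 CPM in the 4 males numbered 50 or higher and 8.78 to 71.4 CPM in the 13 with lower numbers, so that this gene too went with the male number as well as with KFC. The gap in the summed share of the set did not hold for this gene alone. NST of male 5, above the gap at 2.74%, had 61.0 CPM. NST of male 37, below the gap at 0.455%, had 71.4 CPM.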

How the data were processed

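Per the labels' protocols, libraries were made from polyadenylated RNA with the NEBNext Ultra kit. Per the submitters' processing notes, the authors used HISAT2 and HTSeq 0.6.1; no genome build, annotation or strand setting was found in the sources used here. The deposited table holds whole-number read counts for 18618 genes, not normalized. Counts of overlapping genes and near-identical copies may therefore be uncertain.

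Genes passing filterByExpr by region (minimum count 10, minimum total 15) entered edgeR 4.0.16 (R 4.3.3): TMM scaling, robust quasi-likelihood F test, male as a block, Benjamini-Hochberg adjustment over all tested genes, threshold 0.05. The SE was the log2 difference divided by the square root of F. Levels are CPM on the TMM library size, with a prior count of 2 before logs. TN and HY of a number come from the same male. Their deviations from the mean of their region and setting correlated at over 0.1 in 22 of 22 males (median 0.477). In these deviations 22 of 22 TN libraries correlated best with their own HY library. No 2 libraries of a region agreed within sampling noise (lowest chi-square per gene 8.49 over 462 pairs). Single values per library were compared with paired sign-flip permutation tests. Alternatives were DESeq2 1.42.0, limma 3.58.1, other scaling, no filter, thinning and leaving out males.

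In simulated counts with known changes between TN and HY, the test recovered 77% of log2 changes of 0.5 and 94% of those of 1, with 6 false among 177 calls. These counts held no other region difference, whereas 57.7% of genes were called in the real ones, so the rates need not hold there. The comparison, the rules for naming genes and the alternatives were chosen with earlier results of these data known. The rule named, per direction, the gene with the largest log2 difference among those with a mean of at least 10 CPM and the gene with the largest CPM difference, each called and of the same sign in every male. Lists of 16 gene groups and cell types could not be used, because 0 of 18618 identifiers matched a name in the RefSeq gene table of zebra finch.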

Additional observations from a re-analysis of the deposited data

Results flagged for a closer look

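Groups of 4 to 10 libraries of a region and setting were searched for a value far from the rest, and 7 of 56 such groups held one; chance gives about 1 in 20. ENSTGUG00000018706 stood at 413 CPM in HY of male 5 (ISO), where the next library had 52.4 CPM, and at 64.6 CPM in HY of male 37 (NF), where the next had 16.5 CPM. ENSTGUG00000006133 stood at 3069 CPM in TN of male 20 (NF), below the next library at 3810 CPM. HY of male 31 (KF) had 13159755 counts, above the next at 9708330. HY of male 44 (KF) had 14845 genes with a count, against 15643 or more in the rest of its group, and a spread of 0.102, against 0.0278 or less. HY of male 58 (NF) had a spread of 0.0393, against 0.0252 or less.

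The region difference itself differed between LPS and control males for 8 genes of 13529 (edgeR, adjusted p under 0.05), 1 of them higher and 7 lower in TN relative to HY after LPS.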

How the results depend on the processing

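In 441 values from alternatives, counts stayed within 1.5 times those reported, genes kept direction and call, and tests their side of the threshold. A further 6 counts moved by more, and 4 differences changed sign. With scaling by total counts, 2181 genes were higher in TN and 6061 higher in HY; without the bimodal set, that scaling gave 2765 and 5004. The alternatives without the set were chosen after seeing the data. Without the filter on low counts, 1163 genes were at least 2-fold higher in HY, with 17902 genes tested. Leaving out each male in turn gave 7500 to 8418 called genes, 3612 to 4206 higher in TN and 3816 to 4212 higher in HY, 2143 to 3845 in ISO, 2111 to 4403 in KFC, 3349 to 4351 in KF, 2498 to 4470 in NF, and 0 to 1 for the difference between settings. The highest counts in all, in ISO, in KFC and in NF were those without male 44. The difference in spread of TN minus HY changed sign: it was 0.00325 without male 44, 0.00272 without males 4 and 44, 0.000782 after thinning and 0.000146 without the bimodal set. The cause was not tested. Without the replicate block 6679 genes were called in control males, 6498 in LPS males, and 2218, 2565, 3204 and 2712 in ISO, KFC, KF and NF. DESeq2 called 7940 genes and limma 7805; with all libraries of the series 8693 were called. Thinned to the lowest total, 7400 were called. Depth limits genes near the filter, and the number of males limits the settings.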

Other observations

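ENSTGUG00000018706 was high in NST of control males with high numbers, KFC males among them. In control KFC males it averaged 974 ± 218 CPM in NST (SD, n = 5), beside 1161 ± 382 CPM in TN and 37.3 ± 18.5 CPM in HY. In the control males of the ISO, KF and NF settings it averaged 93.0 ± 125 CPM in NST (SD, n = 17), beside 740 ± 402 CPM in TN and 45.1 ± 96.3 CPM in HY. That NST mean joins 4 males numbered 50 or higher, with a median of 301 CPM, and 13 with lower numbers, with a median of 11.2 CPM. The gene was looked at in NST after its values were seen, so the difference between settings was not tested, and KFC and a high male number cannot be told apart.

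For the 13 genes of the bimodal set, 13 of 23 NST libraries of LPS males and 10 of 23 of control males lay above the gap in their share of counts. In LPS males the numbers were 2 of 6 in ISO, 2 of 6 in KF, 5 of 5 in KFC and 4 of 6 in NF. In control males they were 4 of 6 in ISO, 0 of 6 in KF, 5 of 5 in KFC and 1 of 6 in NF. No test was made, because the set was found in these libraries.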
